A study of Mus musculus with 12 samples.

Results

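The 45 genes described here encode the mouse Wnt pathway from ligand to transcription factor. They comprise 19 Wnt ligands, 10 Frizzled receptors, the 2 co-receptors Lrp5 and Lrp6, β-catenin (Ctnnb1) with Axin1 and Axin2, the 4 TCF/LEF factors and 7 secreted inhibitors of the Dkk and Sfrp families. They were chosen by name as members of the pathway and stand among 22367 annotated protein-coding genes of chromosomes 1 to 19, X and Y. BRG1 is the ATPase of the BAF chromatin remodeling complex, and its binding was mapped by ChIPseq in cardiac progenitors (CPs) differentiated in culture from wild-type mouse embryonic stem cells of the W4/129S6 line at passages 15 to 20. The cells were fixed with DSG and formaldehyde, and their chromatin was cut with micrococcal nuclease and then sonicated. Behind the single list of BRG1-binding regions in CPs stand 2 BRG1 ChIP libraries and 1 input library, and the other 9 of the 12 libraries of the study were not used here. The list gives only the position of each region on the mouse assembly mm9, with no height, fold enrichment or P-value and no value per library. The depth behind each region is therefore unknown, no error between replicates can be given, and a gene without a listed region may be unbound or below the authors' threshold.

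Wnt ligands are secreted lipid-modified proteins that bind Frizzled receptors on neighbouring cells. In the canonical branch, a Frizzled and an Lrp5 or Lrp6 co-receptor recruit Axin, which stops the destruction of β-catenin, and β-catenin then enters the nucleus and joins TCF/LEF factors at target genes. Non-canonical ligands such as Wnt5a and Wnt11 act through Frizzled receptors without β-catenin. In the developing heart, canonical signals favour the formation of mesoderm and later hold back the differentiation of cardiac progenitors, whereas non-canonical ligands and secreted inhibitors accompany it.

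The list had 4791 rows that named 3473 distinct regions covering 1.68 Mb, and each distinct region was counted once. The study takes the rows as its BRG1-binding regions in CPs, and the number of distinct regions is the one it gives for CMs. What a repeated row stands for is not given in the sources used here, so that the meaning of the distinct regions is uncertain to that extent. A list of positions cannot check the identity of the cells. Of 9 genes that mark cardiac precursors, 1 (Isl1) had a region at its promoter and 6 had one within 100 kb, where genes with the same number of CG dinucleotides at the promoter would give 1.30 and 4.21. Of 4 pluripotency genes, 0 had a region at the promoter and 1 had one within 100 kb, where such genes would give 0.504 and 1.67. Of 4 endothelial genes it was also 0 and 1, where such genes would give 0.0126 and 1.22.

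The sequences below come from mm9 within the listed regions, in each case on the strand of the named gene and free of annotated exons. The first set shows the 3 regions at promoters of the pathway that held the word CTTTGAT, which TCF/LEF factors bind, with the word in capitals (ATCAAAG where it lies on the opposite strand). The Tcf7 sequence (chr11:52096866-52096985, minus strand) is the whole region, which lay upstream of the transcription start site (TSS). That of Wnt11 (chr7:105983446-105983621, plus strand) is the part upstream of its TSS, and that of Axin2 (chr11:108782508-108782565, plus strand) lies in an intron behind the first annotated TSS.
Tcf7: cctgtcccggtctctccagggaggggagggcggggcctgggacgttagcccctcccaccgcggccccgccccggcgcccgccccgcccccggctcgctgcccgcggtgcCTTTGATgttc
Wnt11: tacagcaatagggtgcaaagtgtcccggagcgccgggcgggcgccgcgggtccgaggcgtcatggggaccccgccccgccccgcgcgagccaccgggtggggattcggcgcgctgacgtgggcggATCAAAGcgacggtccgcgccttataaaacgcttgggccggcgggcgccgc
Axin2: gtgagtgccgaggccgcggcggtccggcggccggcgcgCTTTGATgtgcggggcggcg

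The next pair shows how unlike stretches of the promoter regions were in base composition. Each is a stretch of 160 bp with every CG dinucleotide in capitals, from Lrp6 (chr6:134516984-134517143, minus strand), with 32 CG dinucleotides, and from Wnt5a (chr14:29319526-29319685, plus strand), with 12. In both regions the exon-free stretch with most CG dinucleotides was taken, out of 477 exon-free bases at Lrp6 and 585 at Wnt5a.
Lrp6: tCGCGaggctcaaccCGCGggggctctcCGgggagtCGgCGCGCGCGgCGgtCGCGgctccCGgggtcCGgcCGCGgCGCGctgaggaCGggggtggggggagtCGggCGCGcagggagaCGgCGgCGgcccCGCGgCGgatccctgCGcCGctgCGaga
Wnt5a: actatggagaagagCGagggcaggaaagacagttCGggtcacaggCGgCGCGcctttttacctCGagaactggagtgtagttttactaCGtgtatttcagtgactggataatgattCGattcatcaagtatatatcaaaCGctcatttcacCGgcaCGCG

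The last pair comes from regions outside every annotated promoter. The stretch downstream of Fzd4 (chr7:96571737-96571896, plus strand) holds a GATA word, AGATAA, in capitals as its opposite strand TTATCT. The region in an intron of Wnt3 (chr11:103671526-103671705, plus strand) is shown whole with its 19 CG dinucleotides in capitals.
Fzd4: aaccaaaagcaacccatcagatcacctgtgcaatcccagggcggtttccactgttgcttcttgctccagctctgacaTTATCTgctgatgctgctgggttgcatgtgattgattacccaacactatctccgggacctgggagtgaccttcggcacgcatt
Wnt3: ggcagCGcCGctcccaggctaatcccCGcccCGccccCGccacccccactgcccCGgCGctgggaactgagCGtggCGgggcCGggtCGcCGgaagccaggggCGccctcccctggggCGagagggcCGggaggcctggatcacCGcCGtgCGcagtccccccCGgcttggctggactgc

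A BRG1-binding region lay at the promoter of 16 of the 45 Wnt pathway genes, or 35.6% (95% Wilson interval 23.2% to 50.2%, which covers counting error over genes only), where a promoter reaches 1 kb to either side of any annotated TSS. Among all protein-coding genes the share was 11.9%. Promoters of the Wnt pathway were rich in CpG, with a median of 131 CG dinucleotides in the window against 66.0 for all protein-coding genes, and CpG-rich promoters carried a listed region far more often than CpG-poor ones. Other protein-coding genes whose promoter held the same number of CG dinucleotides, within 5, carried a region in 30.6%, which would give 13.8 genes of 45. The Wnt genes thus stood 4.9 percentage points above genes of like promoters, and the share of those genes lay inside the counting interval. The genes with a promoter region were the ligands Wnt2, Wnt2b, Wnt5a, Wnt9b and Wnt11, the receptors Fzd2, Fzd3, Fzd4 and Fzd7, both co-receptors, Axin2, Tcf7, Tcf7l2, Sfrp1 and Sfrp5. All shares are descriptions of a single set of positions, and no test was made.

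Within 100 kb of a TSS, 29 of the 45 genes (64.4%, interval 49.8% to 76.8%) had a region, against 38.3% of all protein-coding genes and 56.5% of genes with the same promoter CpG count. The difference from the latter was 7.9 percentage points, and their share again lay inside the interval. It was 4.1 points with 1 gene of each linked pair of genes and turned to -0.6 points within 200 kb. With reference genes also of the same class of neighbour number it was 10.5 points, and of the same class of TSS number 11.3 points. The 13 genes reached only at such a distance were Wnt1, Wnt3, Wnt3a, Wnt4, Wnt5b, Wnt6, Wnt9a, Wnt10a, Wnt10b, Wnt16, Fzd9, Axin1 and Lef1, and the remaining 16 genes had no region within 100 kb. These 16 were 4 ligands, 5 Frizzled genes, Ctnnb1, Tcf7l1 and 5 secreted inhibitors, with nearest regions from 110 kb (Tcf7l1) to 936 kb (Fzd1) away. The median distance from a gene of the pathway to its nearest region was 53.1 kb, against 52.8 kb for genes with the same promoter CpG count and 166 kb for all protein-coding genes. None of the 45 genes lay close to the limit of the promoter window. The farthest region inside it was 185 bp from its gene, at Tcf7, and the nearest outside it was 11.7 kb away, at Wnt10a. At the limit of 100 kb, Wnt4 lay just inside with a region at 79.6 kb and Tcf7l1 just outside with a region at 110 kb.

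**Figure D1:**
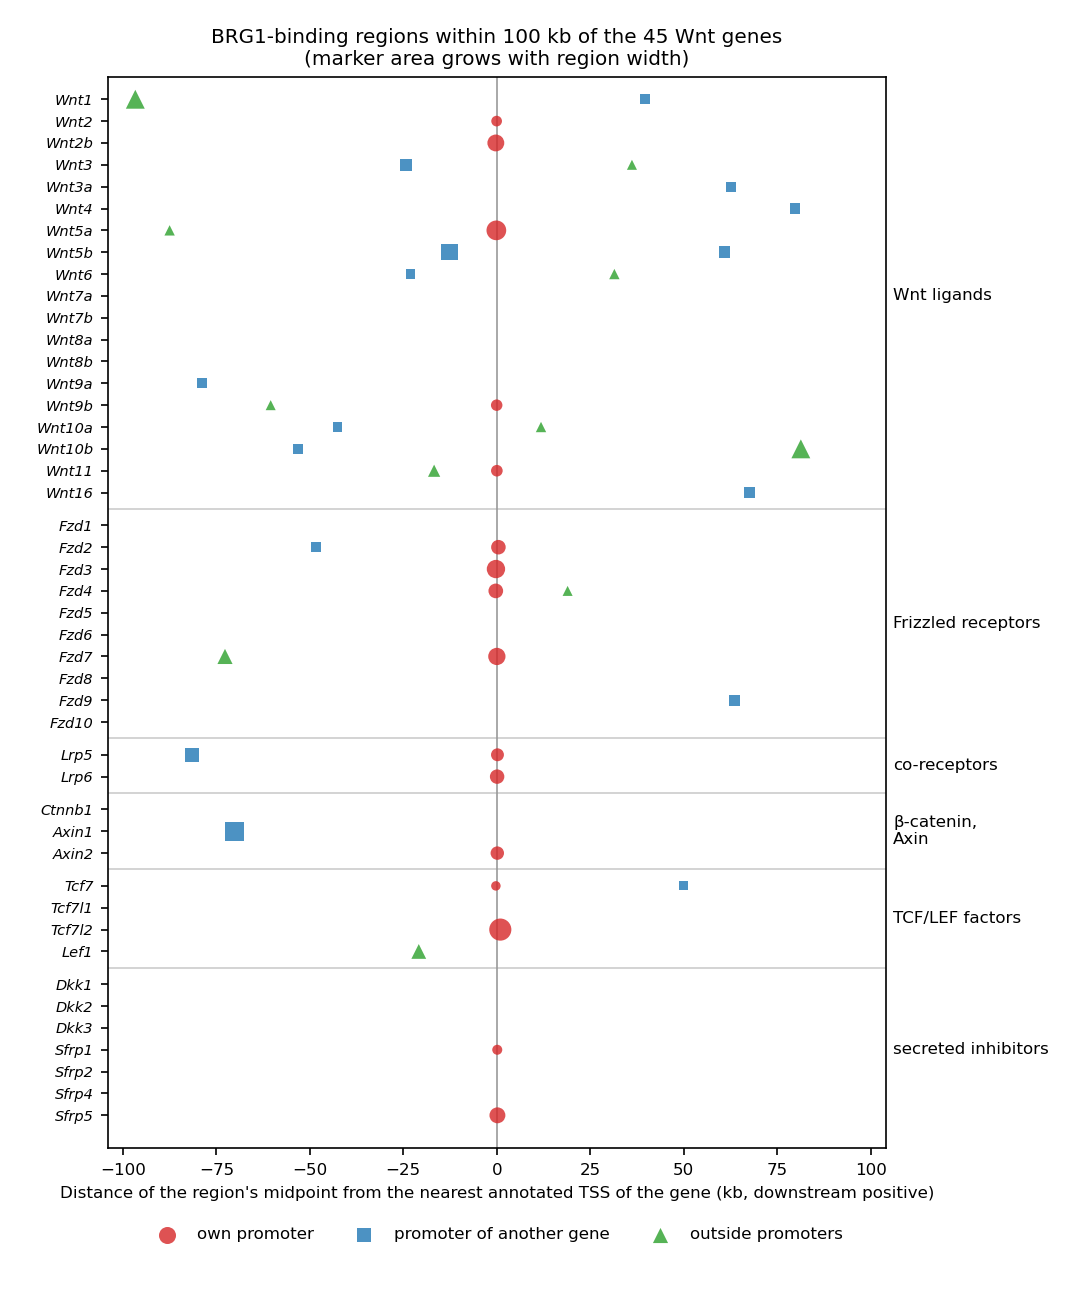
Positions of the BRG1-binding regions within 100 kb of each of the 45 Wnt pathway genes, as the distance in kb of the midpoint of a region from the nearest annotated TSS of the gene. Circles are regions at the gene's own promoter, squares regions at the promoter of another gene and triangles regions outside promoters, with marker area growing with width. The circles of 16 genes sit at the TSS, and 16 genes have no marker.

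Of the 19 ligands, 5 had a region at the promoter, or 26.3%, against 26.0% of genes with the same promoter CpG count. Wnt5a, a ligand of the non-canonical branch, had the widest of them, 1840 bp at chr14:29318046-29319885. It began 110 bp past the 5′ end of the gene, reached 1949 bp into it and spanned an internal TSS. Wnt11, the other non-canonical ligand of cardiogenesis, had a region of 380 bp at chr7:105983446-105983825 that reached from 176 bp upstream to 203 bp downstream of the 5′ end. Wnt2, a ligand of heart and lung mesoderm, had 260 bp at chr6:17980326-17980585, which covered the first 260 bp of the gene and nothing upstream. Its close relative Wnt2b had 1240 bp at chr3:104764266-104765505, from 878 bp upstream to 361 bp downstream. Wnt9b, a ligand of kidney development, had 360 bp at chr11:103610986-103611345, from 210 bp upstream to 149 bp downstream. The regions of Wnt5a and Wnt2b were on 2 rows of the list and those of Wnt2, Wnt9b and Wnt11 on 1 row. The promoters of these 5 ligands ranged in CpG count from 70 at Wnt2 to 131 at Wnt2b, so that none was among the most CpG-rich ligand promoters, those of Wnt4 (197), Wnt9a (177), Wnt5b (173) and Wnt7b (171), which had no promoter region.

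Among the 10 Frizzled receptors, which bind the ligands at the cell surface, Fzd2, Fzd3, Fzd4 and Fzd7 had a promoter region, where the share of genes with the same promoter CpG count (39.4%) would give 3.94. Their regions were all wide, from 820 to 1540 bp, and all on 2 rows. Fzd3, a receptor of axon guidance, had 1540 bp at chr14:65880686-65882225, from 925 bp upstream to 614 bp downstream of the 5′ end. Fzd7, a receptor of stem cells and early mesoderm, had 1320 bp at chr1:59538346-59539665, from 645 bp upstream to 674 bp downstream. Fzd4, a receptor of vessel growth, had 840 bp at chr7:96552186-96553025, from 690 bp upstream to 149 bp downstream, and this region was also at the promoter of its neighbour Tmem135. It was the only one of the 16 promoter regions shared with another protein-coding gene (6.25%, against 7.79% of all promoter regions). Fzd2 had 820 bp at chr11:102465766-102466585, which began 21 bp past the TSS and lay wholly downstream of it. The 6 Frizzled genes without a promoter region had CpG counts of 102 to 158 and those with one 135 to 169, so that the ranges overlapped.

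The co-receptors Lrp5 and Lrp6 both had a region, where the share of genes with the same promoter CpG count would give 0.827 of 2. Lrp6 had 800 bp at chr6:134516446-134517245, from 262 bp upstream to 537 bp downstream. Lrp5 had 560 bp at chr19:3686106-3686665, from 101 bp upstream to 458 bp downstream. With 15.6 and 15.9 CG dinucleotides per 100 bp, both were denser in CpG than the other promoter regions of the pathway except that of Sfrp1, at 16.7.

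Of the 3 genes of β-catenin and Axin, only Axin2, a scaffold of β-catenin destruction that is itself switched on by Wnt signalling, had a promoter region. It was 640 bp wide at chr11:108781926-108782565 on 2 rows, lay 263 to 902 bp past the 5′ end of the gene, and spanned an internal TSS. Axin1, the constitutive scaffold, had its nearest region 69.3 kb upstream, at the promoter of Rab11fip3. Ctnnb1, which encodes β-catenin itself, had no region within 145 kb, although the highest CpG count over its 13 annotated TSS positions was 194, the same as for Axin2. At the 5′ end of Ctnnb1 the count was 38.

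The 4 TCF/LEF factors, which carry β-catenin to DNA, were each different. Tcf7l2 had the widest region of the pathway, 2420 bp at chr19:55816026-55818445 on 3 rows, from 274 bp upstream to 2145 bp downstream of the 5′ end. Tcf7 had the narrowest promoter region, the 120 bp printed above, which lay from 304 to 185 bp upstream of the TSS. A further region of 80 bp lay 49.9 kb from Tcf7 at the promoter of Skp1a. Lef1 had a single region, of 860 bp on 4 rows, 20.4 kb upstream and between genes. Tcf7l1, which acts mainly as a repressor, had none within 100 kb.

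Of the 7 secreted inhibitors, which hold ligands away from their receptors (the Sfrp family) or block the co-receptors (Dkk1 and Dkk2), 2 had a promoter region, 28.6% against 15.7% of genes with the same promoter CpG count. Sfrp5 had 1060 bp at chr19:42276046-42277105 on 2 rows, from 363 bp upstream to 696 bp downstream. Sfrp1 had 180 bp at chr8:24522006-24522185, which lay 32 to 211 bp downstream of the TSS. The other 5 inhibitors, Dkk1, Dkk2, Dkk3, Sfrp2 and Sfrp4, had no region within 100 kb, and their nearest regions were 135 kb (Dkk3) to 520 kb (Dkk2) away.

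**Figure D2:**
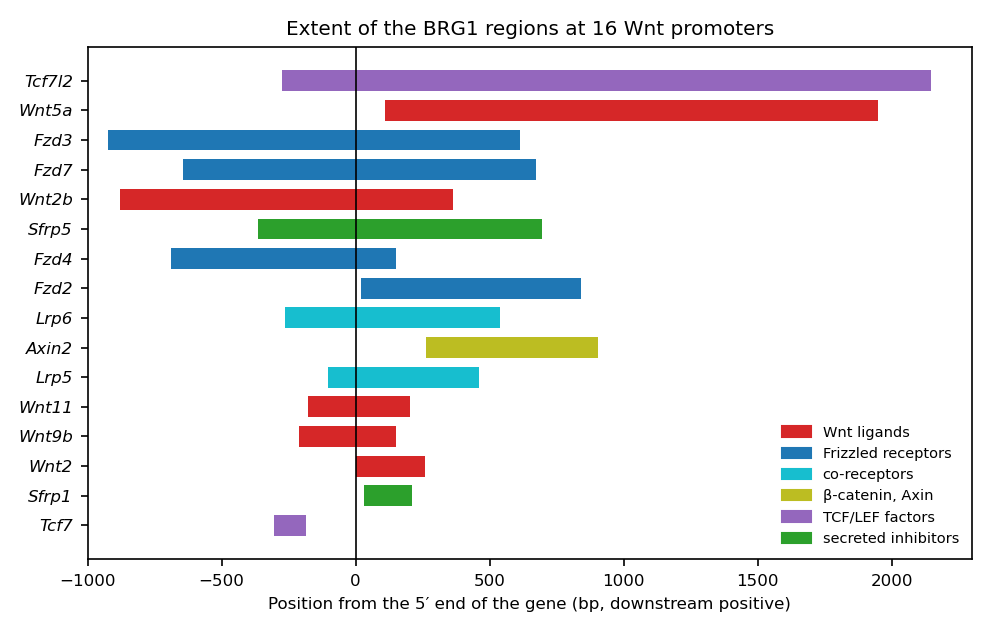
Extent in bp, from the 5′ end of the gene, of the BRG1-binding region at each of the 16 Wnt pathway promoters, sorted by width and coloured by role. The widths run from 120 bp at Tcf7 to 2420 bp at Tcf7l2, and the regions of Wnt5a, Fzd2, Axin2 and Sfrp1 lie wholly downstream of the 5′ end.

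Of the 16 promoter regions, 13 spanned an annotated TSS, and all 16 genes had their region within 1 kb of the 5′ end of the gene. The regions had a median width of 810 bp (quartiles 375 and 1260 bp), against 420 bp for all 2566 distinct promoter regions and 500 bp for those of genes with the same promoter CpG count. At 13 of the 16 genes the region was wider than the median for genes with the same promoter CpG count. Of the 16 regions, 6 (37.5%) were 1 kb or wider, against 12.4% of all promoter regions and 12.9% at genes with the same promoter CpG count. They were those of Tcf7l2, Wnt5a, Fzd3, Fzd7, Wnt2b and Sfrp5. More of them were also on 2 or more rows, 9 of 16 (56.2%), against 26.9% of all promoter regions. The width of a region depends on the sequencing depth and on how the authors joined neighbouring bins, and the part of either was not tested.

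Over their whole length, the wide regions tended to be less CpG-dense. The 6 regions of 1 kb or wider had 6.74 (Wnt5a) to 9.68 (Fzd3) CG dinucleotides per 100 bp, whereas the 10 narrower regions had 8.33 (Fzd4) to 16.7 (Sfrp1). A single stretch does not stand for a whole region, since the 160 bp of Lrp6 printed above are denser than its region, and a stretch of the same length in the wide region of Fzd3 also held 32 CG dinucleotides. Over all 16, the median was 10.7 CG dinucleotides per 100 bp and 70.5% GC, against 12.1 and 74.1% for all promoter regions.

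**Figure D3:**
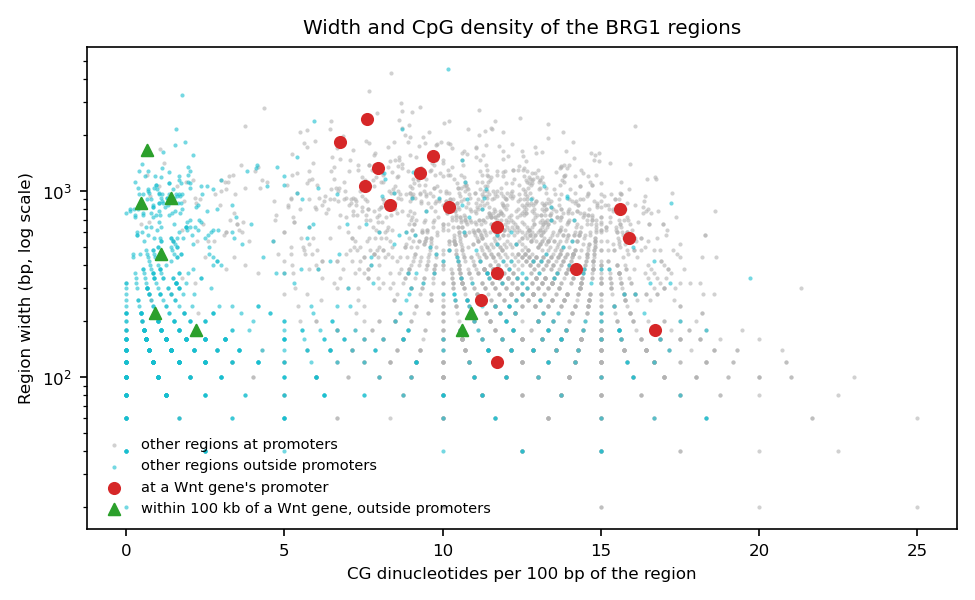
Width in bp (log scale) against CG dinucleotides per 100 bp for the 3473 distinct BRG1-binding regions. Red circles are the 16 regions at Wnt pathway promoters, which range from 6.74 to 16.7 CG dinucleotides per 100 bp, and green triangles are the 8 regions within 100 kb of a Wnt gene outside every promoter, of which 6 lie below 3 and 2 at 10.6 and 10.9.

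Promoter CpG count did not separate the Wnt genes with a promoter region from those without. The counts were 70 to 194 (median 142) in the 16 genes with a region and 38 to 197 (median 123) in the 29 genes without. From 125 to below 150 CG dinucleotides, 6 of 10 Wnt genes had a region, against 39.0% of other protein-coding genes. From 150 to below 175 it was 5 of 11, against 43.1%. From 175 to below 200, 1 of 4 had a region, Axin2, against 51.3%, and Wnt4, Wnt9a and Ctnnb1 had none. From 100 to below 125, 2 of 10 had one, Wnt11 and Sfrp5, against 22.1%. From 75 to below 100 it was 1 of 2, Wnt9b, against 11.6%. From 50 to below 75 it was 1 of 6, Wnt2, against 4.13%, and from 25 to below 50 it was 0 of 2, against 0.681%.

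**Figure D4:**
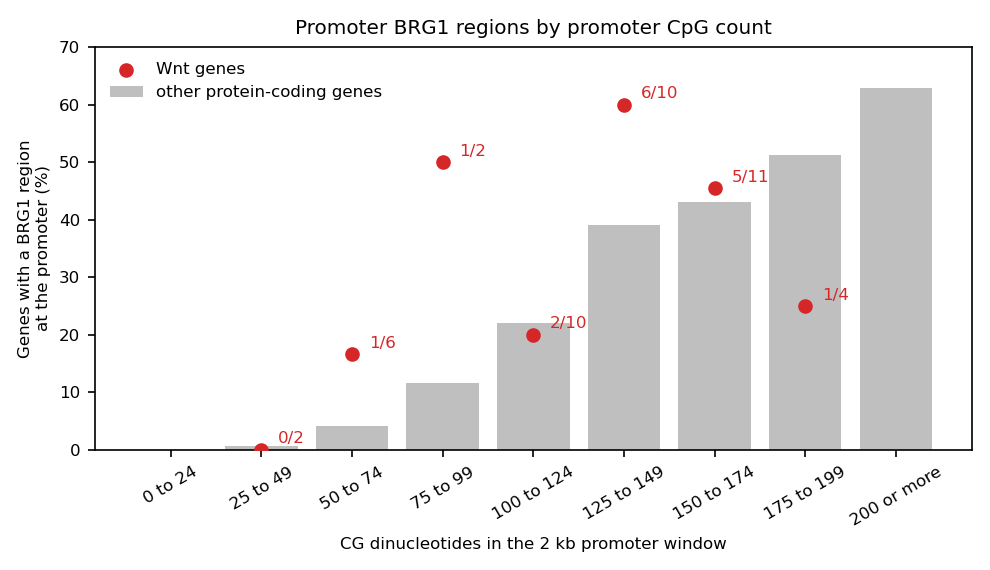
Share of genes with a BRG1-binding region at the promoter, in percent, by the number of CG dinucleotides in the promoter window. Grey bars are other protein-coding genes, which rise from 0.0191% below 25 CG dinucleotides to 62.8% at 200 or more, and red points are the Wnt pathway genes with their counts.

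By role, the ligands stood farthest above genes of like promoters within 100 kb among the roles of more than 4 genes, but not beyond counting error once their linkage was taken into account. Within 100 kb, 15 of 19 ligands had a region (78.9%, interval 56.7% to 91.5%), against 53.0% of genes with the same promoter CpG count, a difference of 25.9 percentage points. The Frizzled genes went the other way, with 5 of 10 (50.0%, interval 23.7% to 76.3%) against 62.8%, as did the secreted inhibitors with 2 of 7 (28.6%, interval 8.22% to 64.1%) against 47.6%. Of these 3 roles, only the ligands had a reference share outside the interval, which takes linked genes as independent. The excess of the ligands was smaller at other distances, with 10 of 19 (interval 31.7% to 72.7%) against 40.2% within 50 kb and 15 of 19 against 69.2% within 200 kb, and both reference shares lay inside the intervals. The 4 ligands without a region, Wnt7a, Wnt7b, Wnt8a and Wnt8b, had their nearest regions at 233 to 250 kb.

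**Figure D5:**
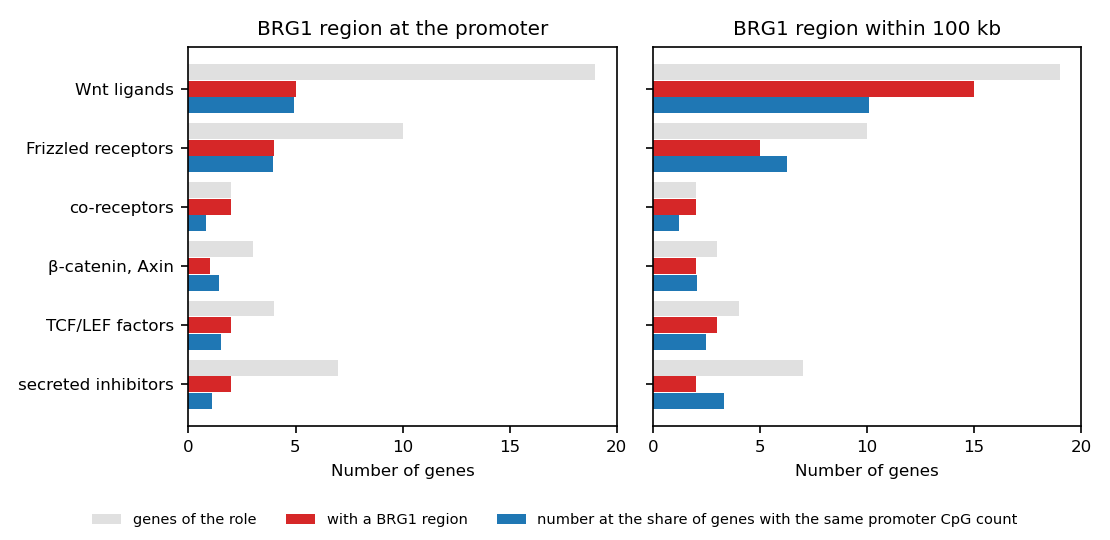
Number of Wnt pathway genes with a BRG1-binding region at the promoter (left) and within 100 kb (right) by role. Grey bars are the genes of the role, red bars those with a region and blue bars the number at the share of genes with the same promoter CpG count. At 100 kb the red bar of the ligands is at 15 and the blue at 10.1, whereas at the promoter they are at 5 and 4.94.

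Ligand genes lie in linked pairs, and this entered the count. Wnt1 and Wnt10b lie 11.7 kb apart, Wnt3a and Wnt9a 16.2 kb, Wnt6 and Wnt10a 19.6 kb, and Wnt3 and Wnt9b 24.3 kb. Each pair shared all of its regions within 100 kb, 2, 1, 2 and 2 of them respectively. Counted once per pair, 11 of 15 ligands had a region (73.3%, interval 48.0% to 89.1%), against 53.1% of genes with the same promoter CpG count. The difference was then 20.2 percentage points. The reference share lay inside the interval, which is wider for 15 genes than for 19. Over all genes it was 25 of 41 (61.0%), against 56.9%.

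The 36 distinct regions within 100 kb of a Wnt gene were at very different places. Of these, 16 were at a promoter of the pathway, 12 at the promoter of another gene, 5 between genes, 2 in introns and 1 in an exon. For 7 of the 13 genes reached only at a distance, every region was at another gene's promoter. Wnt3a and Wnt9a shared the promoter region of Arf1, at 62.6 and 78.7 kb. Wnt4 had that of Cdc42 at 79.6 kb, Wnt16 that of Fam3c at 67.5 kb and Fzd9 that of Baz1b at 63.5 kb. Wnt5b had the regions of Fbxl14 at 12.1 kb and of Adipor2 at 60.7 kb, the former 1160 bp wide and overlapping Wnt5b itself. The pair of Wnt1 and Wnt10b had the promoter region of Prkag1 at 39.6 and 53.1 kb, and the pair of Wnt6 and Wnt10a that of Prkag3 at 23.0 and 42.6 kb. Fzd2 and Lrp5, beside their own promoter regions, had those of Gpatch8 at 48.3 kb and of Suv420h1 at 81.1 kb. A position near a Wnt gene does not say which gene a region acts on.

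Regions outside every promoter were near 11 of the 45 Wnt genes (24.4%, interval 14.2% to 38.7%), against 11.8% of genes with the same promoter CpG count and 8.75% of all other protein-coding genes. With 1 gene of each linked pair it was 8 of 41 (19.5%, interval 10.2% to 34.0%), against 11.9%, which then lay inside the interval. There were 8 such regions. By a measure chosen after the sequences had been seen, 2 of the 8 held a tandem repeat of 40 bp or more. They were those of Fzd7 (46 bp) and Lef1 (65 bp), whereas 2.87% of all regions outside promoters held such a repeat. Without regions that hold such a repeat, 28 of the 45 genes had a region within 100 kb, 5.8 percentage points above genes with the same promoter CpG count. Wnt1 and Wnt10b shared the widest, 1660 bp on 3 rows between genes (chr15:98522766-98524425), 95.9 and 80.5 kb away. Fzd7 had one of 920 bp on 4 rows 72.2 kb upstream (chr1:59465826-59466745), and Fzd4 one of 180 bp 18.9 kb downstream (chr7:96571726-96571905). Wnt11 had 460 bp 16.5 kb upstream (chr7:105966626-105967085), and Wnt5a had 220 bp 87.4 kb upstream in an intron of Erc2 (chr14:29230306-29230525). Together with that of Lef1, these 6 regions held 0.465 to 2.22 CG dinucleotides per 100 bp. The other 2 were CpG-dense, with 10.6 in the intron of Wnt3 printed above, 36.1 kb from the Wnt3 TSS and 60.4 kb from that of Wnt9b, and 10.9 in an exon of Wnt10a (chr1:74849806-74850025), 11.7 kb from its TSS and 31.3 kb from that of Wnt6.

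The TCF/LEF word CTTTGAT, searched on both strands, was in 3 of the 16 promoter regions of the pathway (18.8%), against 51 of all 2566 promoter regions (1.99%). These are the Tcf7, Wnt11 and Axin2 sequences printed above. The word was centred at -192 bp from the TSS of Tcf7 and at -48 bp from that of Wnt11. At Axin2 it lay 886 bp past the 5′ end of the gene and at -101 bp from a nearer annotated TSS. Tcf7 and Axin2 are known targets of the factors that bind this word, but a match of letters is not a bound site. The promoter regions of the pathway were wider than most, and a longer sequence has more places for a word. In windows of 500 bp around the midpoint of each region, a measure added after the counts were seen, the word was in 2 of 16 (12.5%), against 2.30% of all promoter regions. With the related word CTTTGTT it was 2 of 16, against 6.20%. The shorter word CAAAG, part of both on the opposite strand, was in 14 of 16, against 39.1%. Neither of these words was counted in windows of equal width, so the part of region width in their counts is unknown. None of the 20 other regions near a Wnt gene held CTTTGAT.

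Words of cardiac factors were searched in these regions as well. The GATA word AGATAA, on both strands, was in 2 of the 16 promoter regions, those of Sfrp5 and Tcf7l2 (12.5%, against 4.91% of all promoter regions), with 3 copies at Sfrp5 between -305 and -178 bp from its TSS. It was in 2 of the 8 regions outside promoters, those of Fzd4 and Fzd7, against 24.9% of all such regions. In windows of 500 bp around the midpoints it was 1 of 16 (6.25%) against 4.72% at promoters, and 1 of 8 against 33.8% outside them. The T-box word AGGTGTGA was in 0 of the 16 promoter regions and 0 of the 8 outside promoters, where 0.624% and 1.76% of all such regions held it. No region near a Wnt gene held both CTTTGAT and AGATAA, so that no matches overlapped. A region without a match only lacks these letters.

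Of 61 further genes of the pathway, 20 had a region at the promoter (32.8%, interval 22.3% to 45.3%), against 24.9% of genes with the same promoter CpG count, and 36 had one within 100 kb (59.0%, against 52.8%). All 4 receptors of other families, Ror1, Ror2, Ryk and Ptk7, which bind non-canonical Wnt ligands or act with them, had a promoter region, where genes of like promoters would give 1.21. None of the 9 further inhibitors, such as Wif1, Frzb and Kremen1, had one, where 1.34 would be given. Within 100 kb, however, 6 of these 9 had a region, Wif1 and Kremen1 among them, where 3.96 would be given. Of the 12 genes of the β-catenin destruction machinery, 5 had one, Apc, Gsk3a, Gsk3b, Csnk1a1 and Csnk1e, where 3.26 would be given. Of the 10 nuclear partners, 4 had one, Pygo1, a co-activator, and the Groucho co-repressors Tle1, Tle3 and Tle4, where 3.29 would be given. Of the 9 genes of planar cell polarity, 4 had one, Vangl2, Prickle1, Prickle2 and Daam1, where 2.52 would be given. In the R-spondin axis of 9 genes, the receptors Lgr4 and Lgr5 had one, where 1.81 would be given, and the 4 R-spondins had none. Rnf43 of this axis lay just outside the promoter window, with its nearest region 1103 bp from a TSS. The feedback inhibitor Nkd1 was the only one of the 5 Dishevelled and feedback genes with a promoter region, where 1.26 would be given. Porcn, Wls and Notum, which process the ligands, had none, where 0.526 would be given.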

How the data were processed

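BRG1 ChIPseq of wild-type CPs was used, as 1 deposited list. Before deposit, the authors removed adapters (fastq-mcf), mapped reads to mm9 (Bowtie), kept those of sufficient mapping quality and took bins with more signal than input DNA, by a P-value. Tool versions and the way in which the 2 libraries were combined are not given in the sources used here. The deposited values are positions in bp, without height, fold or P-value, so that precision cannot be given per region. Starts were read as counted from 0 and are printed counted from 1.

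The 3473 distinct regions were set against mm9 and GENCODE release M1 with pysam 0.24.0, pandas 2.3.3, numpy 2.4.6 and scipy 1.17.1 under Python 3.11.15, and drawn with matplotlib 3.10.9. A promoter was 1 kb to either side of an annotated TSS, and its CpG count was the highest over the TSSs of a gene. The share at genes with the same promoter CpG count is the mean, over the genes described, of the share among other protein-coding genes within 5 CG dinucleotides, from at least 119 genes each, and at least 54 for the further pathway genes. All 45 symbols were matched in the annotation, and of 61 further pathway genes 2 were matched through older symbols in RefSeq. Overlap and matching were tested on simulated positions. The genes, lists and words were chosen with earlier results of these data known. Genes with a promoter region are named in full, those reached within 100 kb by their regions, and the rest by count and nearest distance. No test between groups was made. Libraries of CMs, and those of BAF170 or BAF60c knockout lines, were left out, as only the wild-type CP list was analysed. Some sequence is not reported here.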

Additional observations from a re-analysis of the deposited data

How the results depend on the processing

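Of 7 results under 57 alternatives, 1 reversed and 7 moved, by over 1.5 times for a count, or for a difference to outside the counting interval of the share. The other 49 stayed within these limits, which are wide for the differences, as these ran from 4.1 to 14.8 percentage points. Restricted to regions on 2 or more rows, 9 Wnt genes had a promoter region and 15 had one within 100 kb, and the differences from genes with the same promoter CpG count were then 9.2 and 14.8 points. Restricted to regions outside every promoter, 11 Wnt genes had a region within 100 kb, 12.7 points above genes with the same promoter CpG count. Of the 19 ligands, 8 had one (42.1%, interval 23.1% to 63.7%), against 11.1% of genes with the same promoter CpG count. This interval takes linked ligands as independent. Among the 8, the pairs of Wnt1 and Wnt10b, Wnt3 and Wnt9b, and Wnt6 and Wnt10a each shared their region. A count of the ligands once per pair was not made for these regions. Without a match on CpG count, the differences were 23.7 points at the promoter and 26.2 points within 100 kb. Within 200 kb, 32 of 45 genes had a region and the difference reversed to -0.6 points. The cause of the reversal was not tested. With the shorter word CAAAG, 14 of the 16 promoter regions held a match, against 39.1% of all promoter regions. The 16 regions were wider, with a median of 810 bp against 420 bp, and this word was not counted in windows of equal width. Other definitions of promoters, TSSs and reference genes left the promoter difference between 4.1 and 9.2 points. Of the alternatives, 9 were chosen after the data had been seen.

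No paired analysis was possible because positions without any value per library make up the list, and leaving out a library or raising the threshold was impossible for the same reason. Depth limits what can be said of the genes without a region, whose binding below the threshold is unknown.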
